A study of Mus musculus with 6 samples.

Results

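The comparison described here set the cortex at day 28 after an experimental stroke against the cortex at day 14, the last interval of the time course. The value of a gene was the largest of the summed FPKM of its transcript starts, the summed FPKM of its transcript ends and the FPKM of any single event assigned to it. FPKM is the authors' unit of level, scaled for transcript length and sequencing depth. Genes with a value of at least 1 FPKM at day 14 or at day 28 were compared, which gave 12050 of the 15441 genes that had a value in any of the 6 libraries of the series, and 11603 of them were listed in both. A ratio was written as log2 of (day 28 + 0.1) over (day 14 + 0.1), and a gene was called higher or lower at day 28 when this log2 ratio was at least 1 in size, that is a 2-fold difference.

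The study followed male C57/BL6J mice of 6 to 8 weeks in which the dye Rose Bengal was injected and the exposed skull illuminated for 15 min, so that light-driven clotting closed the cortical vessels (photothrombosis). RNA was taken from the whole ipsilateral cortex 1, 3, 7, 14 or 28 days later, and, for the sham group, on day 7 from mice operated without illumination. RNA of 3 mice was pooled for each library, with 1 library per group. No spread between animals can therefore be had, no test was made, and every difference below is one between 2 pools. The dissected cortex held infarct, border and distant tissue together, and in such bulk samples fewer cells of a type and less RNA per cell cannot be told apart.

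After a cortical infarct, resident microglia and infiltrating macrophages clear dying cells and myelin, which loads them with lipid and engages their lysosomes, and they present antigen and secrete chemokines. Astrocytes around the lesion enlarge and form a border, and fibroblast-like cells lay down collagen in the core. As the debris is removed the inflammatory cells become fewer or return to a resting state, while a scar remains and the surviving neurons rebuild synapses.

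Of the 12050 genes, 836 (6.94%) were higher and 949 (7.88%) lower at day 28, and the median log2 ratio over all genes was -0.06. A further 10265 genes lay within 2-fold. The higher genes included 300 that were not listed at day 14, and the lower genes 147 that were not listed at day 28. A gene that is not listed can be low or can be a failed estimate of the assembly, and its own ratio is not printed. In the counts and list medians its value was taken as 0, and beside a printed median the one over genes listed in both is given where they differ by more than 0.1. Among the genes listed in both libraries, 536 were higher and 802 lower. The lower side included genes of inflammation, phagocytosis, interferon response, antigen presentation and scar matrix, and the higher side included many long transcripts that were low at day 14 alone.

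**Figure D1:**
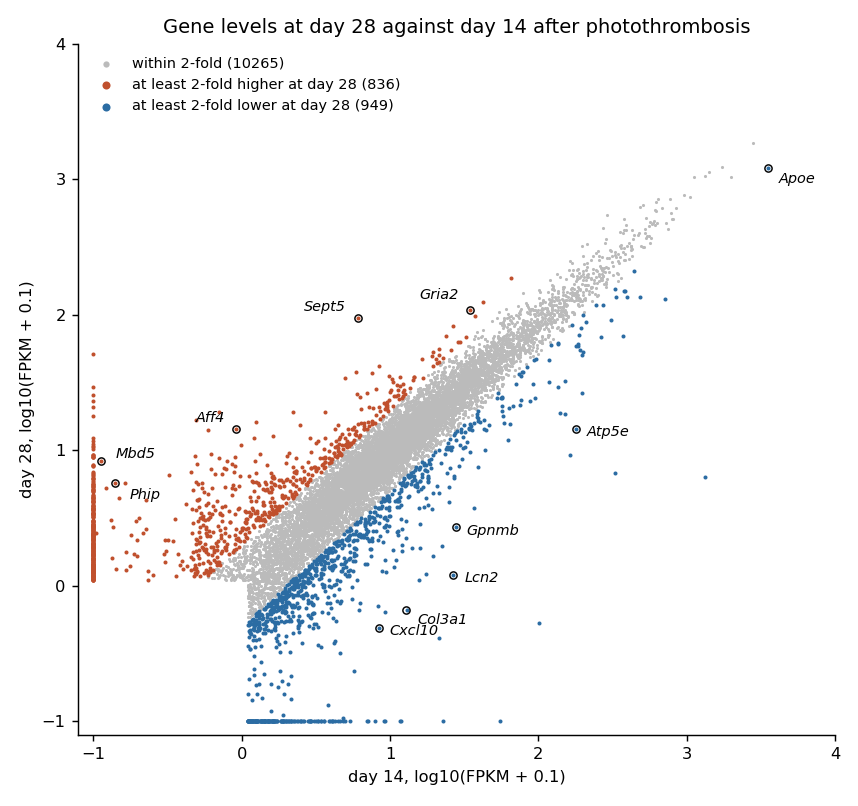
Each point is 1 of the 12050 genes compared, at its level at day 14 (x axis) and day 28 (y axis), both as log10(FPKM + 0.1), and the vertical and horizontal lines of points at -1 are genes not listed in that library. Lcn2, Cxcl10, Col3a1 and Gpnmb stand far below the diagonal, Mbd5 and Phip far above it with day 14 values close to 0.

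Transcript length went with the ratio over the whole table, so counts and medians of the lists are also given after a correction for it, and where no corrected count is printed beside a list it was the same. Spearman's rank correlation between the log2 ratio and the length of the longest transcript was 0.41 across the 12042 genes with an annotated length, a description only, as genes do not vary independently. The genes were divided by length into 10 sets of equal size. In the set of shortest transcripts (43 to 1284 nt) the median log2 ratio was -0.41, with 3.98% of the genes higher and 16.8% lower. In the set of longest (6879 to 40378 nt) the median was 0.35, with 18.2% higher and 4.4% lower. The median length was 4977 nt for the higher genes, 2310 nt for the lower genes and 3400 nt for all.

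The correction subtracted the median ratio of genes of the same length and left a rank correlation of 0.0209. With it 804 genes (6.68%) were higher and 830 (6.89%) lower. Of the genes called without the correction, 723 of the 836 higher (86.5%) and 742 of the 949 lower (78.2%) were called in the same direction with it. The part of RNA quality or library preparation in this relation was not tested.

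**Figure D2:**
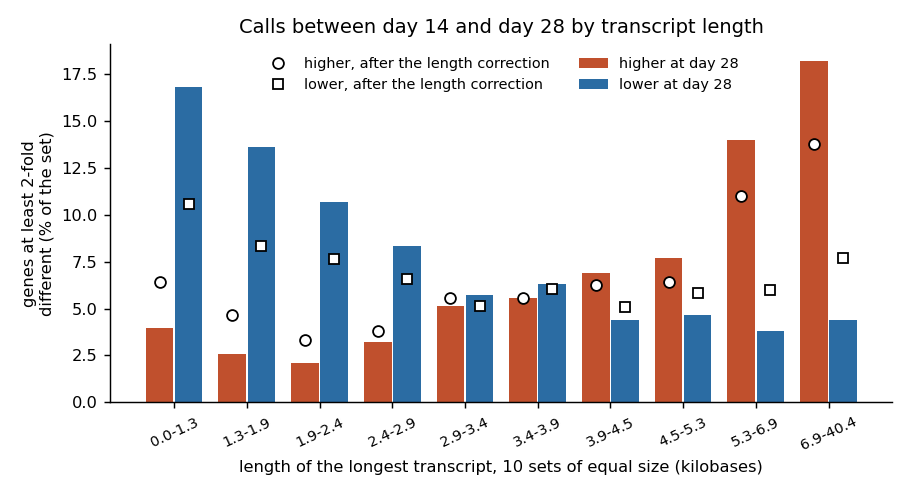
Percentage of the genes in each of 10 equal sets by transcript length (x axis, in kilobases) that were at least 2-fold higher (orange bars) or lower (blue bars) at day 28 than at day 14, and the same percentages after the length correction (open circles and squares). The share of lower genes decreases from 16.8% among the shortest to 4.4% among the longest, and the share of higher genes goes the other way, from 3.98% to 18.2%.

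Day 7 and sham, which take no part in the ratio of day 28 to day 14, showed where the called genes stood before. Among the 949 genes lower at day 28, 427 (45.0%) had been at least 2-fold above sham at day 7, against 945 (7.84%) of all genes compared. The share was 30.2% of the lower genes in the set of longest transcripts, where 4.73% of all genes were above sham at day 7, and 35.1% in the set of shortest, where 10.3% were. From here on, 6 values in a row are the levels in the order sham, day 1, day 3, day 7, day 14, day 28. The median levels of the lower genes were 1.29, 1.67, 2.49, 2.9, 3.38 and 1.0 FPKM. Over all genes the sham median was 7.43 FPKM, and the shares above were not matched for level. Many lower genes passed the filter of 1 FPKM through day 14 alone, among them the 147 not listed at day 28. At day 28, 627 of the 949 lower genes (66.1%) were within 2-fold of sham, 101 were still above it and 221 were below it. Of all genes compared, 93.2% were within 2-fold.

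The genes higher at day 28 had another course. At day 7, 50 of them (5.98%) were at least 2-fold below sham, against 240 (1.99%) of all genes, and 87 (10.4%) were at least 2-fold above it, against 7.84% of all genes. Their median levels were 3.15, 2.5, 3.36, 3.22, 0.497 and 3.42 FPKM. The sham median over all genes was 7.43 FPKM, and these shares too were not matched for level. Day 14 was the lowest of the 6 libraries for 647 of the 836 (77.4%, against 21.9% of all genes), and for 419 (50.1%, against 3.48%) it was at least 2-fold below every other library. For the 949 lower genes day 14 was the highest library for 509 (53.6%, against 28.3% of all genes), and for 68 (7.17%, against 0.564%) it was at least 2-fold above every other library. These shares are partly fixed by the choice of the genes on their day 14 value and are a description. At day 28, 706 of the higher genes (84.4%) were within 2-fold of sham, a smaller share than the 93.2% of all genes.

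**Figure D3:**
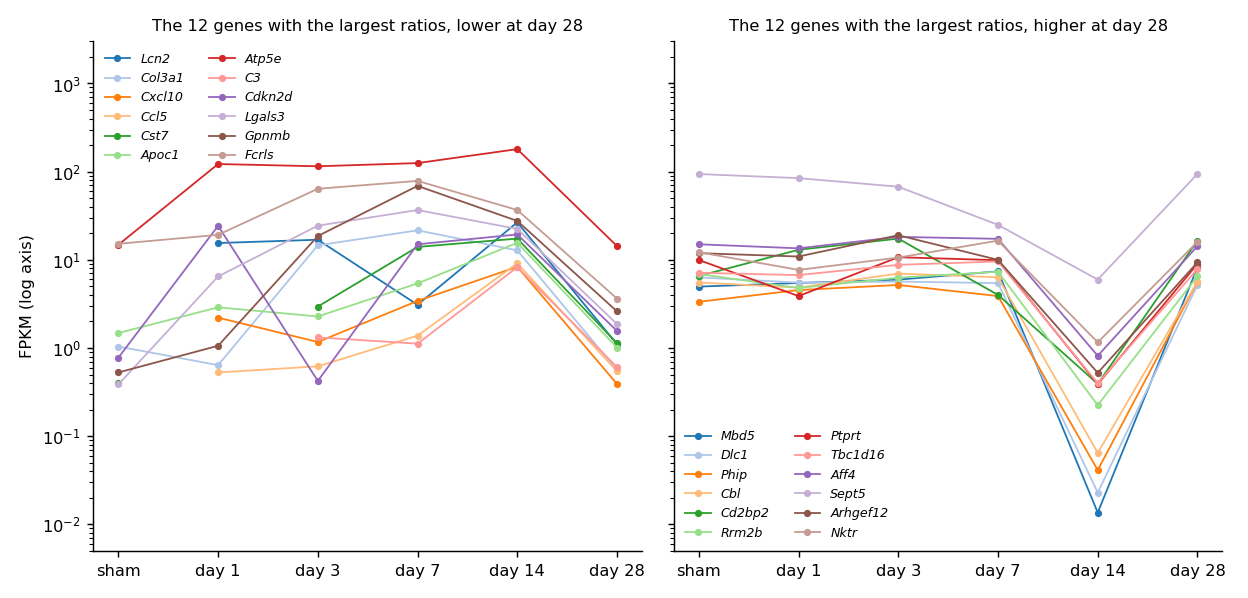
FPKM (log axis) in each of the 6 libraries of the 12 genes with the smallest (left) and the 12 with the largest (right) ratio of day 28 to day 14 among protein-coding genes listed in both and of at least 5 FPKM in either, with no point where a gene was not listed. On the left Gpnmb, Col3a1, Lgals3 and Fcrls are highest at day 7 and Cxcl10, Ccl5, Apoc1 and C3 at day 14. On the right day 14 is the lowest library for all 12, Sept5 is also low at day 7, and Cd2bp2 and Ptprt vary among the other libraries.

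Genes of inflammation, phagocytosis, reactive glia and scar were mostly lower. Over 13 such lists, 177 different genes were compared, of which 119 (67.2%) were lower and 2 higher, and 167 had a ratio below 0. The 119 made up 12.5% of the 949 lower genes, so most of the lower side lay outside these lists. Their median log2 ratio was -1.54, and -1.36 after the length correction, under which 117 were lower. Split at the median length, 29 of the 66 longer genes (43.9%) and 90 of the 111 shorter ones (81.1%) were lower, against 4.72% of all longer and 11.0% of all shorter genes. The lists had been chosen with the behaviour of many of these genes in the same libraries known, and they share some members, so their counts describe the groups. At day 7, 107 of the 119 had been at least 2-fold above sham, as had 126 of all 177 genes of these lists. At day 28, 88 of the 119 were within 2-fold of sham, 28 still above and 3 below.

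**Figure D4:**
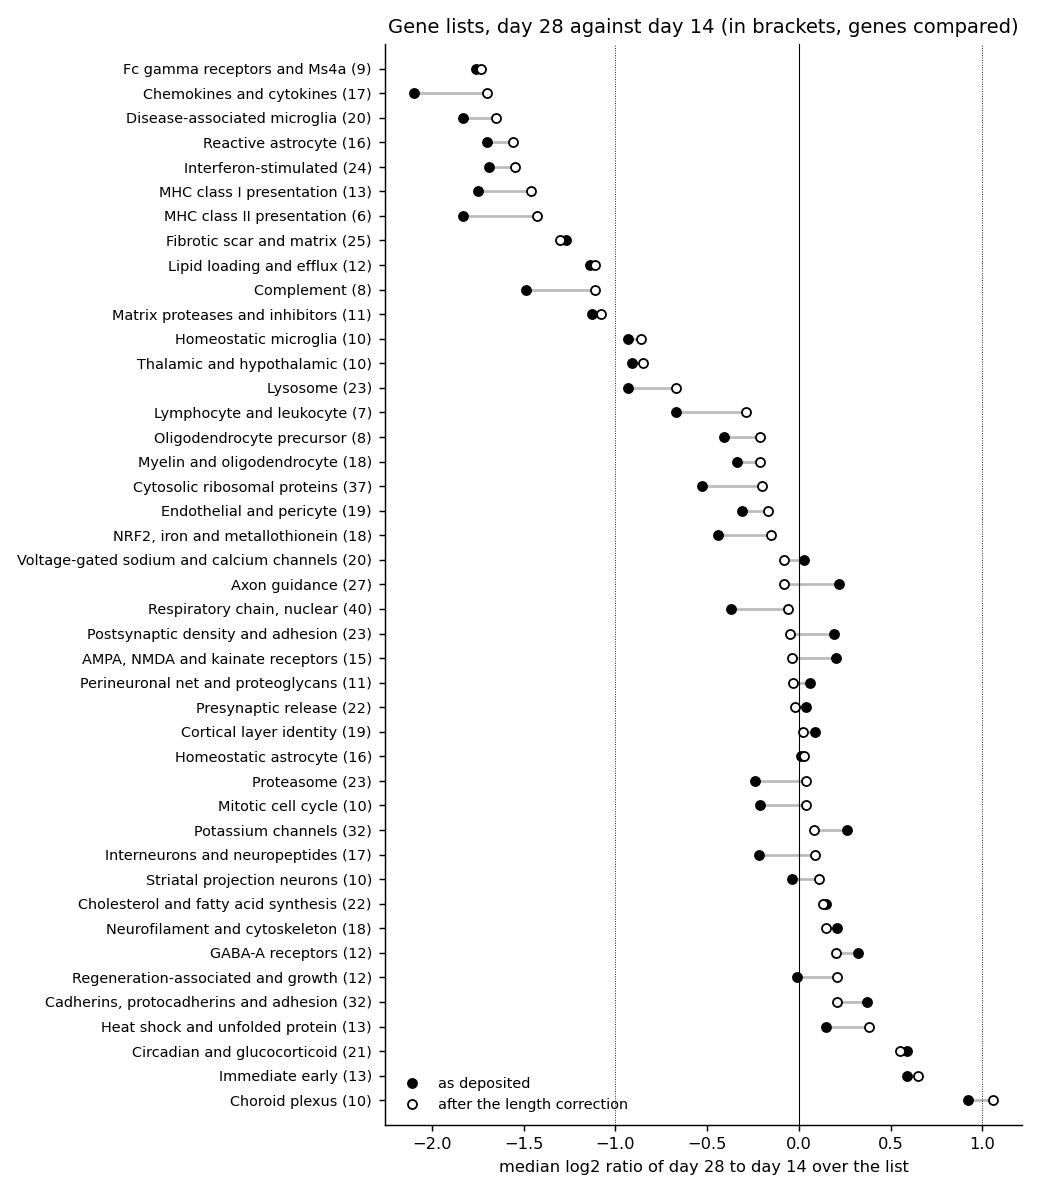
Median log2 ratio of day 28 to day 14 (x axis) over each gene list with at least 5 genes compared, as deposited (filled circles) and after the length correction (open circles), with the number of genes in brackets and dotted lines at -1 and 1. The Fc receptor, chemokine, disease-associated microglia, reactive astrocyte, interferon and MHC lists stay below -1.4 after correction, while the ribosomal, respiratory chain, proteasome, axon guidance and glutamate receptor lists move to between -0.2 and 0.04.

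Among the genes of disease-associated microglia, the state that microglia take up around lesions, 15 of 20 were lower, with a median log2 ratio of -1.83 (-1.65 after correction). Gpnmb, a transmembrane glycoprotein of lipid-laden phagocytes (ENSMUSG00000029816, chromosome 6, 49036546 to 49070929 of GRCm38, plus strand), had 0.528, 1.06, 18.6, 68.9, 27.6 and 2.6 FPKM. Cst7, an inhibitor of lysosomal cathepsins, was at 17.4 FPKM at day 14 and 1.13 at day 28, a log2 ratio of -3.83. Itgax, the integrin chain CD11c, was not listed in sham and at day 1 and went from 0.0923 at day 3 to 1.9 at day 7, with 1.47 FPKM at day 14 and 0.0196 at day 28. These genes were at or near their highest levels at day 7 and had lost most of their signal by day 28.

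Several genes of this state remained above sham. Lyz2, lysozyme of macrophages, was at 26.2 FPKM at day 28 against 6.73 in sham, although it had come down from 196 at day 14. Its close copy Lyz1 could share reads with it. Spp1, the secreted phosphoprotein osteopontin, had 18.5 FPKM against 7.42 in sham and 151 at day 14. Lgals3, the sugar-binding lectin galectin-3, had 1.87 against 0.386 in sham and 22.4 at day 14. In this list 16 of 20 genes were at least 2-fold above sham at day 14 and 6 of 20 at day 28. Lyz2, Spp1 and the other genes of this paragraph were singled out after their values were seen.

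The markers of resting microglia differed less. In the homeostatic list 5 of 10 genes were lower (4 after correction), with a median of -0.93 (-0.86 after correction, and -0.73 over genes listed in both), and 1 of the 5, Selplg, had its value from events outside its annotated span. P2ry12, the ADP receptor that guides microglial processes, had 18.0, 7.01, 21.7, 17.7, 13.3 and 15.6 FPKM, a log2 ratio of 0.23. Csf1r, the receptor for the survival factor of these cells, had 38.9 at day 14 and 23.3 at day 28, against 23.9 in sham. Among the members listed in both, Fcrls, an Fc receptor-like scavenger gene of microglia, had the largest change. It had 15.2 in sham, 36.7 at day 14 and 3.63 at day 28 (log2 ratio -3.30), so that it ended below sham. Cx3cr1, a further one of the 5, was counted as lower because it was not listed at day 28. It was listed at day 1 (0.098 FPKM) and day 14 (1.84) but not in the other 4 libraries, sham among them.

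The receptors for antibody and their relatives were also lower, in 8 of 9 cases and in 7 after correction (median -1.76, and -1.73 after correction). Fcer1g, the signalling chain shared by the activating Fc receptors, had 8.6, 13.9, 29.4, 51.2, 43.7 and 9.88 FPKM. Fcgr4, an activating receptor for IgG, was at 4.01 at day 14 and 0.475 at day 28 and was not listed in sham. The complement genes gave 5 of 8 lower, and 4 after correction, with a median of -1.49 (-1.11 after correction, and -0.88 when only transcript starts were summed). The 3 chains of C1q, the recognition unit of the classical pathway, had log2 ratios of -1.95, -1.90 and -1.95 for C1qa, C1qb and C1qc, and C3, the central component, had -3.56, from 8.25 to 0.607 FPKM.

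Lysosomal genes were lower to a lesser degree, with 10 of 23 past the limit and a median of -0.93 (-0.67 after correction, and -0.80 over genes listed in both). Ctsd, an aspartic protease of lysosomes, had 124, 151, 655, 1170, 486 and 135 FPKM. Cd68, a membrane protein of phagocyte lysosomes, had 19 at day 14 and 3.56 at day 28, below the 4.32 of sham. Psap, the precursor of the saposins that help to break down sphingolipids in every cell, differed little (524 and 427 FPKM).

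For lipid handling, 7 of 12 genes were lower with a median of -1.14 (-1.11 after correction). Plin2, which coats lipid droplets, had 1.37, 5.34, 44.6, 44.7, 11.9 and 1.9 FPKM. Apoe, the main lipid carrier of the brain, had 716, 287, 1390, 855, 3530 and 1210 FPKM. It was therefore highest at day 14 and remained above sham. Apoc1, an apolipoprotein encoded beside Apoe, had 1.48 FPKM in sham, 15.6 at day 14 and 1.01 at day 28. Apoc4, also lower, had its day 28 value (0.136 FPKM) from events outside its annotated span. The cholesterol exporters Abca1 (7.94 and 5.37) and Abcg1 (19.3 and 15) stayed within 2-fold.

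Of the chemokines and cytokines 12 of 17 genes were lower and none higher. Their median was -2.10, with -1.70 after correction, -1.85 over genes listed in both and -1.20 with a pseudocount of 1 FPKM. Cxcl10, which attracts T cells, had the largest difference of the listed ones, with 8.33 FPKM at day 14 and 0.391 at day 28 (log2 ratio -4.10). Ccl5, another attractant of T cells and monocytes, had 9.12 and 0.545 (-3.84). The monocyte attractants Ccl3 (3.76 FPKM at day 14) and Ccl12 (7.78) were not listed at day 28. Of those that neurons or glia make in the resting brain, 2 stayed within 2-fold, with Cx3cl1 at 154 and 138 FPKM and Cxcl14 at 57.1 and 49.6.

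Of the interferon-stimulated genes 18 of 24 were lower and 1 higher, with a median of -1.69 and of -1.55 after correction. Bst2, the surface protein tetherin (ENSMUSG00000046718, chromosome 8, 71534255 to 71537456 of GRCm38, minus strand), had 3.1, 4.55, 10.6, 21, 24.7 and 4.06 FPKM (log2 ratio -2.58). Ifit3, a protein that binds foreign RNA complexes in antiviral defence, had 4.71, 6.16, 7.21, 15.2, 17.9 and 6.12. Lgals3bp, a secreted scavenger-domain protein, had 26.8 at day 14 and 6.18 at day 28. These genes, unlike those of the phagocytic list, were higher at day 14 than at day 7 as a group, with a median log2 ratio to sham of 2.08 at day 7, 2.47 at day 14 and 0.40 at day 28. Of the lower members Irf9, a factor that carries the interferon signal to the nucleus, had 62.4% of its value inside its annotated span. Ifih1, a sensor of double-stranded RNA, was the higher gene and only because it was not listed at day 14 (1.27 FPKM at day 28).

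Interferon acts through an element in promoters whose core, the interferon-stimulated response element, was searched here as GAAA, any 2 bases and GAAA again, on both strands, in the 300 bases from 250 before to 50 after the start of each gene, as RefSeq gives them for GRCm38.p6. A promoter was found for 9275 of the genes compared, and for the 2030 with more than 1 the first listed was used. The letters stood in 262 (2.82%) of all these promoters, in 41 of 695 lower genes (5.90%) and in 15 of 629 higher genes (2.38%). In the interferon-stimulated list 11 of 18 promoters held them (61.1%), of which 7 belonged to lower genes, and of the 7 promoters without them 5 did. Outside that list the share among lower genes was 34 of 683 (4.98%). A second motif, GAGGAAGT, the core of the site bound by the myeloid factor PU.1, stood in 262 of all promoters (2.82%), 31 of 695 lower (4.46%) and 19 of 629 higher genes (3.02%). A match is a string of letters and no evidence of binding. The promoters below are shown because they belong to lower members of the interferon, chemokine and antigen presentation lists, with the interferon element in capitals, and in Ctss also the reverse complement of the PU.1 core (ACTTCCTC). In Bst2 the capitals are 2 overlapping matches, in Ifit3 2 separate matches on the opposite strand.
Bst2 (chr8:71537423-71537722, minus strand): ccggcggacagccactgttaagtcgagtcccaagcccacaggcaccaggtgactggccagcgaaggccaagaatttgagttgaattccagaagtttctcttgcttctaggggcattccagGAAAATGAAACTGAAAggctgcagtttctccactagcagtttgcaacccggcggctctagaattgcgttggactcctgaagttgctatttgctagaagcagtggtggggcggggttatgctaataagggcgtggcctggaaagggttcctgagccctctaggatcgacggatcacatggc
Ifit3 (chr19:34583279-34583578, plus strand): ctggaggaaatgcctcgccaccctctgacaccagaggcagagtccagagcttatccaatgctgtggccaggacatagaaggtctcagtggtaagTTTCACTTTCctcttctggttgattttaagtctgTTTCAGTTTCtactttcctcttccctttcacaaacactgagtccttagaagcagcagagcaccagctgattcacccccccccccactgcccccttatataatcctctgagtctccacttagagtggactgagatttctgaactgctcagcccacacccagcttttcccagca
Cxcl10 (chr5:92348840-92349139, minus strand): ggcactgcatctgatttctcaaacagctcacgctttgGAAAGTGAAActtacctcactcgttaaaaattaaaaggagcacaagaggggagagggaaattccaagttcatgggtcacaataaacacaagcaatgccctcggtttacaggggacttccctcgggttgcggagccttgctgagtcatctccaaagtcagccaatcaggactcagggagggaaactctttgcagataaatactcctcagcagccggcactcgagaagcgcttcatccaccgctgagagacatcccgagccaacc
Ctss (chr3:95526536-95526835, plus strand): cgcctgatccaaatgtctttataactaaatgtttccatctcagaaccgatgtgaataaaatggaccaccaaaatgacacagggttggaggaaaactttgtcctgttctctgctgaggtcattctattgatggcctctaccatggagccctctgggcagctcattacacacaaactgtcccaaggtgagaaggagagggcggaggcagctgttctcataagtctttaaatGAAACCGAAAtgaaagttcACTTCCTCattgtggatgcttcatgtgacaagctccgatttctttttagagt

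Antigen presentation genes belonged to the same side. For class I, which shows peptides from inside the cell, 10 of 13 genes were lower, with a median of -1.75 (-1.46 after correction). B2m, the light chain of class I molecules, had 71.1, 91.6, 155, 239, 308 and 91.6 FPKM. Psmb9, a subunit of the immunoproteasome that cuts peptides for loading, had 3.75 at day 14 and 0.527 at day 28, and Tap1, which pumps them into the endoplasmic reticulum, 3.72 and 0.729. In the ordinary proteasome none of 23 subunits passed the limit, with a median of -0.24 that became 0.04 after correction.

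For class II, which shows peptides taken up from outside, all 6 genes compared were lower, 4 of them after correction, with a median of -1.83 (-1.43 after correction). H2-Aa, the alpha chain of the I-A molecule, had 1.16, 1.84, 5.47, 6.23, 11.1 and 2.38 FPKM. H2-Eb1, a beta chain, had 6.89 at day 14 and 1.35 at day 28. Ctss, the cathepsin that trims the chain guarding class II molecules, had 178 and 58.8, against 43.4 in sham. The levels at day 28 were still above sham for these 3 genes, by log2 ratios of 0.98 for H2-Aa, 0.76 for H2-Eb1 and 0.44 for Ctss. H2 genes are close copies of one another, and how reads were divided among them in the deposited values is uncertain.

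Leukocyte and neutrophil genes varied in level. Of 23 lymphocyte and general leukocyte genes 7 were compared and 3 of these were lower, with a median of -0.67 (-0.29 after correction). The 3 were 42.9% of the 7, against 7.88% of all genes. The highest levels in this list were those of Coro1a (54.1 and 42.5 FPKM), within 2-fold, and Laptm5 (32.9 and 11.4), which was lower. Ptprc, the common leukocyte antigen CD45, had 0.836, 1.3, 2.64, 2.34, 3.4 and 0.933 FPKM. Cd79a, a chain of the B cell receptor, had 1.03 and 0.605. Of 9 neutrophil genes, 3 were compared and all 3 were lower. S100a8 (3.84 FPKM at day 14) and S100a9 (5.32), the paired proteins that fill neutrophils, were not listed at day 28, and Lcn2, an iron-siderophore binder of neutrophils and reactive astrocytes, had the smallest ratio of the 7579 genes open to the rule for named genes (26.6 and 1.1 FPKM, log2 ratio -4.48).

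Reactive astrocyte genes were lower in 12 of 16 cases, and in 13 after correction, with a median of -1.70 (-1.56 after correction, and -1.34 over genes listed in both). Gfap, the intermediate filament whose increase defines reactive astrocytes, had 85.8, 330, 698, 422, 380 and 150 FPKM. Vim, the filament made beside it, had 15.5, 64.2, 167, 81.5, 67.6 and 21. Timp1, an inhibitor of matrix proteases, had 6.86 at day 14, and Tgm1, a protein-crosslinking enzyme, 1.88, and neither was listed at day 28. The list had its highest median at day 3, and Gfap stayed above sham at day 28.

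The transport and metabolic genes of the same cells stayed within 2-fold. None of 16 homeostatic astrocyte genes passed the limit, and their median was 0.01, and 0.03 after correction. Glul, which makes glutamine from glutamate, had 528 FPKM at day 14 and 523 at day 28, Aqp4, the water channel of the end-feet, 24.0 and 26.8, and Slc1a3, a glutamate transporter, 124 and 143. With the filament genes lower and these level, the astrocyte lists differed from one another within the same pair of libraries.

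Genes of the fibrotic scar and matrix list are long (median 5564 nt), and longer genes as a whole lay on the higher side. In this list 16 of 25 genes were lower and all 25 had a ratio below 0, with a median of -1.27. After correction 18 were lower, with a median of -1.30. Col3a1, a fibrillar collagen of fibroblasts (ENSMUSG00000026043, chromosome 1, 45311538 to 45349706 of GRCm38, plus strand), had 1.04, 0.639, 14.6, 21.6, 12.8 and 0.563 FPKM (log2 ratio -4.29). Col1a1, its partner in collagen fibres, had 2.46, 3.07, 15.7, 21.2, 13.9 and 1.79. Both were below sham at day 28.

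Other matrix components were lower by less. Dcn, a small proteoglycan that binds collagen, had 34.7 FPKM at day 14 and 15.6 at day 28, against 13.1 in sham. Sparc, a collagen-binding secreted protein, had 228 and 126, against 75.9 in sham, and did not pass the limit. Of the matrix proteases and their inhibitors 6 of 11 were lower and 1 higher, with a median of -1.13 that was -0.19 over the 6 genes listed in both. Among the lower were Mmp3 (2.82 FPKM at day 14) and Mmp12 (2.15), which cut matrix proteins and were not listed at day 28. Timp2 (82.8 and 69.8) and Timp3 (17.3 and 26.6), inhibitors of these enzymes, stayed within 2-fold.

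**Figure D5:**
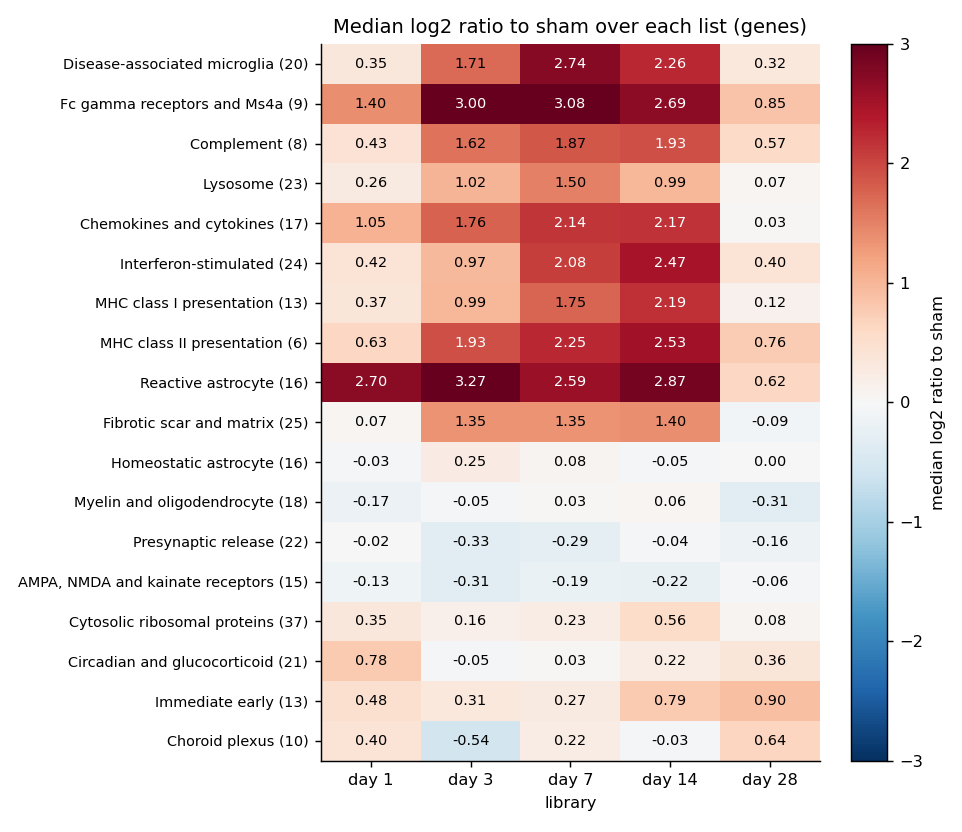
Median log2 ratio to sham (colour and number) over the genes of each list (rows, with the number of genes) in each post-stroke library (columns), with genes that were not listed taken as 0. The phagocyte, complement, interferon, MHC and reactive astrocyte lists are between 1.75 and 3.08 at day 7 and between 0.12 and 0.85 at day 28, and the resting astrocyte, myelin and presynaptic lists stay between -0.33 and 0.25 throughout.

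Most vessel genes stayed within the limit, and myelin genes differed little. Of 19 endothelial and pericyte genes 3 were lower (15.8%, against 7.88% of all genes) and 1 higher (5.26%, against 6.94%). Kcnj8 was counted as lower because it was not listed at day 28, and Flt1 as higher because it was not listed at day 14. The list median was -0.31 (-0.17 after correction). Pecam1, an adhesion protein of endothelium, had 4.02 FPKM at day 14 and 3.13 at day 28, and Vwf, the clotting factor that endothelium stores, 2.61 and 0.779. None of 18 myelin and oligodendrocyte genes passed the limit (median -0.34, and -0.21 after correction), with Mbp, a main protein of myelin, at 1410 and 1140. In the mitotic list 4 of 10 were lower (40.0%, against 7.88% of all genes), with a median of -0.21. This median was 0.04 after correction, 0.14 over genes listed in both and -0.56 with events inside the gene span only. Of the lower genes Top2a, the topoisomerase of dividing cells, had 0.786, 1.64, 12.8, 4.07, 1.87 and 0.549 FPKM. Its high level lay at day 3, well before the interval compared.

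On the higher side the genes of largest ratio were not marker genes of one cell type. Mbd5, a methyl-CpG-binding domain protein (ENSMUSG00000036792, chromosome 2, 48949508 to 49325405 of GRCm38, plus strand), had 4.97, 5.46, 5.96, 7.4, 0.0136 and 8.2 FPKM (log2 ratio 6.19, and 5.85 after correction). Phip, which binds the insulin receptor substrate, had 3.34, 4.54, 5.19, 3.88, 0.0412 and 5.66, and Cbl, a ubiquitin ligase that ends receptor signalling, 5.53, 4.84, 6.98, 6.34, 0.0645 and 5.67. In each of the 3 the day 14 library stood alone and the other 5 were close together. Their longest transcripts measure 8543, 10756 and 11372 nt.

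The same course was seen for Dlc1, an activator of the GTPase activity of small G proteins (0.0229 FPKM at day 14 and 5.2 at day 28), for Aff4, a scaffold of the elongation complex (0.816 and 14.3), and for Arhgef12, an exchange factor of small G proteins (0.523 and 9.36). Shorter transcripts were also among the 12. Cd2bp2, a spliceosomal protein with a transcript of 3284 nt, had 0.392 at day 14 and 16.5 at day 28. Its other libraries ranged from 4.0 at day 7 to 17.4 at day 3, with 6.55 in sham. Sept5, a septin at synaptic vesicles, had 93.9, 84.4, 67.5, 24.9, 5.97 and 94.3 FPKM. It was the one of these genes already at least 2-fold below sham at day 7.

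Among the genes not listed at day 14 were some that were abundant in the other libraries, of which Psd3, an exchange factor at synapses, had 40.8 to 58.9 FPKM in the other 5, and Apc, a scaffold of the Wnt pathway, 24.4 to 46.2. Of the 300 genes not listed at day 14, 213 were listed in all 4 of sham, day 1, day 3 and day 7, and their median length was 4839 nt. Of the 147 not listed at day 28, 39 were listed in all those 4, with a median length of 2059 nt and a median level of 1.52 FPKM at day 14. Baalc was listed at day 28 alone (29.5 FPKM), and Clec2d, a ligand of natural killer receptors, at day 14 alone (11.7). The day 14 library held 79330 events and the other 5 held 87466 to 93931. It listed 13263 genes, against 13267 to 13987 in the others. Its gene values summed to 274478 FPKM, against 241163 to 255534. Whether such single listings come from the level of a gene or from the assembly of a library was not tested.

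Genes of synapses, channels, adhesion and guidance leaned to the higher side, by little. Over 8 lists 183 genes were compared, of which 21 (11.5%) were higher and 7 (3.83%) lower, with a median of 0.21. These genes are long, and 20 of the 21 higher ones were among the 163 longer than the median, a share of 12.3% against 10.5% of all longer genes. After correction the median was 0.03, with 20 higher and 12 lower. For 12 of the 183, all among the 163 longer ones, day 14 was at least 2-fold below every other library, as it was for 351 of all 6020 longer genes. The share of higher genes was thus near that of other genes of their length. When only transcript starts were summed, the medians of the guidance (2.09), sodium and calcium channel (1.44) and adhesion (0.89) lists were much higher than as reported (0.22, 0.03 and 0.37), while the median of all genes was 0.01 and the other 5 lists stayed between 0.11 and 0.35.

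Some single members differed by more than their length group. Gria2, the AMPA receptor subunit that blocks calcium entry, had 119, 69.5, 78.5, 87.7, 34.7 and 109 FPKM (log2 ratio 1.65, and 1.29 after correction). Grin2a, an NMDA receptor subunit of mature synapses, was not listed at day 14, so it has no ratio to set beside its length group. It had 3.28, 7.15, 9.97 and 10.8 FPKM from sham to day 7, and 12.3 at day 28. Slit3, a secreted guidance ligand, had 5.89, 5.82, 5.57, 4.77, 0.637 and 6.59. Map2, a microtubule protein of dendrites, had 113, 68.4, 164, 91.7, 23.7 and 69.5, a log2 ratio of 1.55, and 1.26 after correction. In Gria2, Slit3 and Map2 the day 14 value was the lowest of the 6.

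The release machinery stayed within 2-fold, with none of 22 presynaptic genes past the limit and a median of 0.04. After correction 1 was higher and 2 lower, with a median of -0.02. Snap25, a SNARE protein of vesicle fusion, had 486 FPKM at day 14 and 629 at day 28, and Syp, a protein of the vesicle membrane, 475 and 399. Slc17a7, which loads vesicles with glutamate, had 303, 300, 248, 231, 164 and 251 FPKM. The layer markers gave 3 higher (2 after correction, without Cux2) and none lower of 19, with Cux2, a factor of upper-layer neurons, at 15.3, 13.4, 12.6, 4.98, 5.53 and 14.2 FPKM, low at both day 7 and day 14. Foxp2, a factor of deep-layer neurons, was counted as higher because it was not listed at day 14. The 3 higher layer markers were 15.8% of their list, against 6.94% of all genes.

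Channel genes went in both directions. Of 32 potassium channel genes 6 were higher and 4 lower, with a median of 0.26 (0.08 after correction). These are 18.8% and 12.5%, against 6.94% and 7.88% of all genes, and 10.5% and 4.72% of those longer than the median. Kcnh7, a voltage-gated channel, was not listed at day 14 and had 4.37 FPKM at day 28, and Kcnip4, a calcium-binding partner of such channels, had 3.94 at day 14 and was not listed at day 28. Of 20 sodium and calcium channel genes 1 was higher and 2 lower, and 3 lower after correction. Cacna2d1, an auxiliary calcium channel subunit, was higher (10.1 and 27.6 FPKM), and Cacna1g, a low-voltage calcium channel, was lower (11.7 and 3.83). The direction of Cacna2d1 turned when only transcript ends were summed (log2 ratio -2.94). Cacna1d, a further calcium channel gene (5.29 and 2.57), was lower here and higher when only transcript starts were summed (1.17).

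Short transcripts of general metabolism lay on the lower side by a similar small step. Of 37 ribosomal protein genes, with a median length of 1109 nt, 6 were lower (5 after correction) and none higher, and 35 had a ratio below 0. Their median was -0.53, and -0.20 after correction. The nuclear genes of the respiratory chain gave 4 lower of 40 (3 after correction), with a median of -0.37 and of -0.06 after correction. Of the 94 genes of the ribosomal, respiratory chain and proteasome lists at or under the median length, 10 (10.6%) were lower, close to the 11.0% of all genes of such length. Rplp1, a protein of the ribosomal stalk, had 955 and 762 FPKM, and Atp5b, the catalytic subunit of ATP synthase, 605 and 495. Atp5e, its epsilon subunit, stood far from the rest, with 14.8, 122, 115, 125, 180 and 14.3 FPKM. Sham and day 28 were alike and the other 4 much higher. Many ribosomal protein genes have processed copies in the genome, which makes their single values uncertain.

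In a few lists the median lay above 0 with and without the correction, though most members did not pass the limit. Of 13 immediate early genes, which neurons switch on within minutes of activity, 2 were higher (3 after correction) and 12 had a ratio above 0, with a median of 0.59 (0.65 after correction). The 2 were 15.4% of the list, against 6.94% of all genes. Egr3, a zinc-finger factor, had 15.3, 22.0, 16.2, 12.6, 10.9 and 25.1 FPKM. Arc, a protein of synaptic plasticity, had 17.6, 15.1, 44.9, 29.6, 32.1 and 52.0, and Egr1, another zinc-finger factor, 24.9, 30.4, 31.7, 30.0, 30.1 and 45.4. Day 28 had the highest value of the 6 libraries for these 3 genes, and the median log2 ratio of the list to sham was 0.90 at day 28 and 0.79 at day 14.

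Among circadian and glucocorticoid-responsive genes 5 of 21 were higher and 1 lower, with a median of 0.59 (0.55 after correction). These are 23.8% and 4.76%, against 6.94% and 7.88% of all genes. Per3, a clock repressor, had 6.86, 4.98, 4.07, 4.46, 0.462 and 4.83 FPKM. Zbtb16, a glucocorticoid-induced zinc-finger factor, had 4.73, 7.63, 4.21, 3.22, 0.756 and 5.19, so both were low at day 14 alone. Sgk1, a kinase induced by glucocorticoid, had 15, 54.5, 24.8, 40.2, 19.3 and 52.8, and Per2, a second clock repressor, 2.87, 5.0, 4.92, 3.39, 4.07 and 9.46. Nr1d1, which represses the clock activator Arntl, was the lower gene, with 34.6 at day 14 and 14.4 at day 28. The hour of day at which each cortex was taken is not given in the sources used here. Sgk1, Per2 and Nr1d1 were singled out after their values were seen.

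Marker genes of neighbouring brain regions also differed between the 2 pools. Of 10 choroid plexus genes 4 were higher (5 after correction), with a median of 0.92 (1.06 after correction). The 4 were 40.0% of the list, against 6.94% of all genes. Ttr, the thyroid hormone carrier that this epithelium secretes, had 279, 450, 177, 336, 291 and 549 FPKM. Folr1, a folate receptor, had 2.47 at day 14 and 5.69 at day 28, but the reverse direction when only transcript ends were summed (log2 ratio -1.21). Summed over the 10 genes, the level was 405, 588, 266, 464, 380.0 and 682 FPKM.

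Hypothalamic hormones went the other way. Avp, vasopressin, had 11.7 FPKM at day 14 and 3.01 at day 28, and Oxt, oxytocin, 5.15 and 1.48. Pmch (3.48) and Pomc (2.72), precursors of appetite-regulating peptides, were listed at day 14 but not at day 28, and none of the 4 was listed in sham. Of the whole thalamic and hypothalamic list 5 of 10 were lower, and the summed levels were 25.5, 84.9, 33.7, 64.7, 55.7 and 25.7 FPKM. Striatal genes were level, with none of 10 past the limit and Ppp1r1b, a phosphatase regulator of striatal neurons, at 243 and 288. Of 4 erythrocyte genes 3, all of haemoglobin, were lower and none after correction, with Hbb-bs at 192 and 79.4 FPKM and a log2 ratio of -1.27 that became -0.87 after correction. Among the 3 was Hba-a2 (210 and 88.4 FPKM), with only 9.5% of its day 14 value inside its annotated span. Inside the span its direction turned (20.1 and 50.7 FPKM, log2 ratio 1.33). Its full values enter the erythrocyte sums that follow. The summed levels of the 4 erythrocyte genes were 293, 247, 477, 160.0, 460.0 and 193 FPKM, and those of the 3 neutrophil genes 0.0729, 31.8, 18.4, 3.77, 35.8 and 1.1 FPKM. Lcn2, also a gene of reactive astrocytes, gave 15.5, 16.9, 3.09, 26.6 and 1.1 FPKM of the neutrophil sums from day 1 to day 28. The part of dissection and blood content in the results above was not tested.

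In the other lists most genes stayed within the limit. Of the neuronal ones, 3 of 23 postsynaptic, 2 of 15 glutamate receptor, 1 of 12 GABA-A receptor, 4 of 32 cadherin and adhesion and 4 of 27 guidance genes were higher, and 1, a cadherin, was lower. After correction 1 postsynaptic gene remained higher, and 2 adhesion genes and 1 guidance gene were lower. Gabrg3, a GABA-A receptor subunit, had 2.84, 1.46, 1.71, 2.36, 0.423 and 2.18 FPKM, again lowest at day 14. Of 18 cytoskeletal genes 2 were higher (1 after correction) and 1 lower, the latter Dcx, a microtubule protein of young neurons (2.35 FPKM at day 14 and 0.417 at day 28, against 0.36 in sham). Of 17 interneuron and neuropeptide genes 1 was lower, Cck (328 and 156 FPKM), a neuropeptide of the cortex, with a log2 ratio of -1.07 that no longer passed the limit after correction (-0.65). Reln, a secreted protein of some interneurons (13.8 and 7.33), passed it after correction only (-1.26). Of 11 perineuronal net and proteoglycan genes 1 was higher, Vcan, a large proteoglycan (0.0424 and 1.24), and 1 lower, Cspg4, a proteoglycan of oligodendrocyte precursors and pericytes (2.44 and 1.1), whose direction turned when only transcript starts were summed (log2 ratio 1.45). After correction 2 genes of this list were lower. Of 8 oligodendrocyte precursor genes 2 were lower, and of 3 long noncoding RNAs none passed the limit.

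Stress genes showed little. Of 13 heat shock and unfolded protein genes none passed the limit. Of 18 genes of the NRF2 response, iron handling and metallothioneins 2 were lower, and none after correction. Hmox1, which breaks down haem, had 2.2, 27.0, 65.2, 19.7, 8.6 and 3.63 FPKM, and Ftl1, the ferritin light chain, 183, 262, 490, 543, 440 and 212. Both had come most of the way down by day 28. None of 22 cholesterol and fatty acid synthesis genes passed the limit (median 0.15). Of 12 regeneration and growth genes 1 was higher and 2 lower, among them Igf1, a growth factor that phagocytes secrete, which had 4.86 at day 14 and 1.12 at day 28, while Gap43, a protein of growth cones, was level at 123 and 129.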

How the data were processed

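Strand-specific, poly(A)-selected libraries were made from pooled RNA of whole ipsilateral cortex and sequenced as 150-base pairs, at a stated mean of 33.6 M reads. The submitters' processing notes name Trimmomatic 0.30, HISAT2 2.0.1, HTSeq 0.6.1 and the build mm10. The deposited files hold, for each library, transcript events (starts, ends, skipped and retained parts) with an FPKM that the authors estimated, and no counts, so the depth behind a value and its counting error are unknown. Events of an assembled locus were assigned to the Ensembl identifier given in the file. GENCODE M21 (GRCm38) supplied symbols, lengths and spans for 15429 of 15441 identifiers, and RefSeq the promoters. Because an assembled locus can join neighbours, genes singled out for their ratio over the whole table had at least 90% of their value inside the annotated span. Members taken from the lists were not held to this.

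Ratios used a pseudocount of 0.1 FPKM, a filter of 1 FPKM in either library and a log2 limit of 1. With a pseudocount, the ratio of a low gene is understated. The length correction subtracted the median ratio over 20 bins of transcript length, interpolated in log10 length. Named genes were the 12 largest and 12 smallest ratios among the 7579 protein-coding genes of at least 5 FPKM listed in both, the 8 largest and 8 smallest after correction, 2 members of highest level and up to 3 of largest change in each of 46 lists, cell markers, and the 6 highest genes listed in only 1 library per direction. Not all of them are reported here, and other list members named as examples were chosen after their values were seen. The members and lists were chosen with earlier results of these data known. No test was possible with 1 library per group. The scripts (Python 3.11.15, numpy 2.4.6, pandas 2.3.3, matplotlib 3.10.9) were tested on simulated data. Alternatives were other pseudocounts, filters, limits and scalings, start or end sums only, events inside the span only, and protein-coding genes only.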

Additional observations from a re-analysis of the deposited data

How the results depend on the processing

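With 836 genes higher and 949 lower as reported, a filter of 5 FPKM left 315 and 369, no filter gave 1465 and 1628, and a log2 limit of 2 gave 444 and 299. A pseudocount of 1 gave 571 lower, the sum of transcript starts alone 1845 higher, and genes listed in both libraries 536 higher. With transcript starts alone 68.9% of the calls were higher, and with the limit of 2 59.8%, against 46.8% as reported. The other counts stayed within 1.5 times. The direction turned for Cspg4 (log2 ratio 1.45) and Cacna1d (1.17) with transcript starts alone, for Cacna2d1 (-2.94) and Folr1 (-1.21) with transcript ends alone, and for Hba-a2 (1.33) with events inside its span, and the cause was not tested. No list median that was at least 1 in size changed its sign, but several changed by much. Over genes listed in both libraries the matrix protease median went from -1.13 to -0.19, and with transcript starts alone guidance went from 0.22 to 2.09 and sodium and calcium channels from 0.03 to 1.44. No paired analysis was possible because each group is 1 pooled library, and for the same reason no replicate could be left out. FPKM without counts gives no depth, so how well low values are measured is not known, least of all for genes near 1 FPKM or listed in 1 library.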
